A study of Mus musculus with 4 samples.

Results

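Among colon intraepithelial lymphocytes (IELs) of mice sorted for a TCRβ receptor and CD8α, a minority of cells carried many transcripts of Gzma, which encodes granzyme A. These Gzma-high cells were taken as the cells of both TCRβ libraries with 5 or more Gzma unique molecular identifiers (UMIs, each marking 1 captured mRNA molecule) and 1 or more UMI of Cd3e, a chain of the T cell receptor complex. They numbered 1626 of the 13388 TCRβ cells, and of 16787 cells in the 4 libraries of the series: 1123 came from the library labelled Tcf7KO and 503 from the library labelled Tcf7WT. They are described against the Gzma-0 cells of the same library, which had no Gzma UMI and numbered 3902 in Tcf7KO and 6847 in Tcf7WT, and then between the genotypes. Since the members were chosen by their Gzma and Cd3e UMIs, their Gzma levels are a description, and the Gzmb, Tnfrsf9 and other values of the high against the 0 cells follow from the same division of the cells.

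The TCRβ Tcf7KO and TCRβ Tcf7WT libraries hold live CD3+ TCRβ+ CD8α+ colon cells, and TCRγδ Tcf7KO and TCRγδ Tcf7WT libraries, sorted for the other receptor, serve as a comparison. All 4 carry the same strain label, E8IcreTcf7fl/fl, and differ by the genotype label. E8I Cre is driven by an enhancer of the Cd8a locus that is active in mature CD8α-expressing T cells, so a floxed gene is removed in those cells and not in T cell precursors. The age and number of the mice, any pooling of animals and the deleted stretch of Tcf7 are not given in the sources used here. Each group is 1 library, so genotype and library cannot be told apart, no test was made, and every interval given is a 95% interval for counting error only.

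Granzymes are serine proteases stored in the granules of killer lymphocytes and released together with perforin, which opens the way into the target cell. Granzyme B cleaves after aspartate and starts caspase-dependent death, while granzyme A is a tryptase with other substrates. Intraepithelial T cells of the intestine hold such granules at rest, and many of them bear CD8αα homodimers and receptors first described on natural killer (NK) cells. The Tcf7 product, TCF-1, is a DNA-binding partner of β-catenin that naive and memory T cells need, that acts with LEF-1 and that is usually low in terminal effector cells.

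The windows around the starts of Gzma (chromosome 13, minus strand, GRCm38 gene body 113093825 to 113100981) and Gzmb (chromosome 14, minus strand, 56258838 to 56262260) are shown because Gzma chose the cells and Gzmb went with it, and because RUNX and TCF family factors are among the genes that differed below. They run from 250 bases before to 50 bases after the RefSeq start in GRCm38.p6, at chr13:113100932-113101231 and chr14:56262285-56262584, and are written along the gene. Capitals mark the RUNX core TGTGGT or its reverse complement, and in Gzmb also the AP-1 motif TGANTCA.
Gzma: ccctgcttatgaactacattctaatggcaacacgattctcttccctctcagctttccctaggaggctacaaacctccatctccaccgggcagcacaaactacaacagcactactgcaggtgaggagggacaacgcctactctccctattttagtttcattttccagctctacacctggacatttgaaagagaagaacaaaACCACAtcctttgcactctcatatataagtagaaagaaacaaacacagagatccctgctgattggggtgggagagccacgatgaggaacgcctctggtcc
Gzmb: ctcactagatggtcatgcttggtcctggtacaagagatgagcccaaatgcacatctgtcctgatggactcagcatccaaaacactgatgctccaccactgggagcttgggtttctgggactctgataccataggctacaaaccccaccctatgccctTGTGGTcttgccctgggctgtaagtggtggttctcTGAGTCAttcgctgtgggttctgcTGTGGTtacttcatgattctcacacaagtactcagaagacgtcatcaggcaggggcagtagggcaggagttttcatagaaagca
The Gzma window holds 1 RUNX core, on the opposite strand. The Gzmb window holds 2 RUNX cores, with the AP-1 motif between them and overlapping neither. Neither window holds the TCF/LEF core CTTTGA or the T-box core GGTGTG on either strand. Among 32851 RefSeq mouse windows of the same length, 16.8% hold the RUNX core, 7.81% the AP-1 motif, 16.0% the TCF/LEF core and 19.1% the T-box core, so these matches are common.

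The 4 libraries hold 6195292 to 20289960 UMIs, and the median UMIs per cell were 2860 in TCRβ Tcf7KO and 2431 in TCRβ Tcf7WT. Members summed to 4136778 UMIs in Tcf7KO and 1525477 in Tcf7WT, and had medians of 3445 and 2779 UMIs per cell, above the 2738 and 2397 UMIs of Gzma-0 cells. Cell barcodes shared between pairs of libraries numbered 1 to 10, with none that was Gzma-high in both TCRβ libraries. All 7 T cell markers were detected in members. Together they took 11780 counts per 1000000 UMIs (CPM) in Tcf7KO members and 11260 CPM in Tcf7WT members. Cd3e is among these markers and was part of the rule, so its detection in members follows from the rule. The sort was seen in Trdc, the δ chain constant gene, which was at 18.1 CPM in Tcf7KO members and 2.62 CPM in Tcf7WT members. In the TCRγδ Gzma-high cells of Tcf7KO and Tcf7WT it was at 1988 and 1767 CPM. The 4 NK and ILC1 markers summed to 159 and 94.4 CPM in Tcf7KO and Tcf7WT members, against 92.7 and 78.1 CPM in Gzma-0 cells. Most of it was Klrb1c, at 149.9 and 90.5 CPM in members, while Eomes and Il18r1 were lower in members than in Gzma-0 cells of both libraries, and Ncr1 had 2 UMIs in Tcf7KO members and was not listed in Tcf7WT. The plasma cell markers, of which 3 of 4 were listed in Tcf7KO and 2 in Tcf7WT, summed to 95.7 and 83.9 CPM in members and 87.6 and 73.9 CPM in Gzma-0 cells, nearly all of it Xbp1, and Jchain had 0 UMIs in members of both libraries. Epithelial markers summed to 249 and 215 CPM in Tcf7KO and Tcf7WT members, most of it Epcam, below the 370 and 376 CPM of Gzma-0 cells. Yet a UMI of these markers was found in 55.9% and 44.9% of members, against 37.7% and 33.9% of Gzma-0 cells, which were shallower. Other-type cells had 2 or more UMIs over the B, plasma, myeloid, mast, epithelial, endothelial and stromal markers. They made up 51.9% and 42.1% of members, against 34.0% and 33.6% of Gzma-0 cells. These shares depended on the markers counted. When other-type cells were left out by a shorter marker list, 1104 of 1123 Tcf7KO members and 499 of 503 Tcf7WT members remained. The median log2 ratio of the epithelial markers, members over Gzma-0 cells, was -2.68 in Tcf7KO and -2.74 in Tcf7WT. The larger shares therefore do not show that these members were cells of another type. Tcf7 UMIs do not check the knockout here, because a 3′ count reports the end of the transcript and the deleted stretch is not given.

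Gzma-high cells made up 19.4% of the TCRβ Tcf7KO library (18.4 to 20.5%, exact binomial) and 6.62% of the TCRβ Tcf7WT library (6.07 to 7.20%), a ratio of 2.93. The higher share in Tcf7KO held at every Gzma level. Cells with 5 to 19, 20 to 59 and 60 or more Gzma UMIs made up 3.65%, 6.12% and 9.65% of Tcf7KO, against 0.868%, 2.76% and 2.99% of Tcf7WT. Cells with 1 to 4 Gzma UMIs, which are outside the rule, made up 12.9% of Tcf7KO and 3.18% of Tcf7WT. A further 14 cells of Tcf7KO and 11 of Tcf7WT had 5 or more Gzma UMIs but no Cd3e UMI. Within the TCRγδ sort the same rule took 79.7% of Tcf7KO and 51.6% of Tcf7WT.

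**Figure D1:**
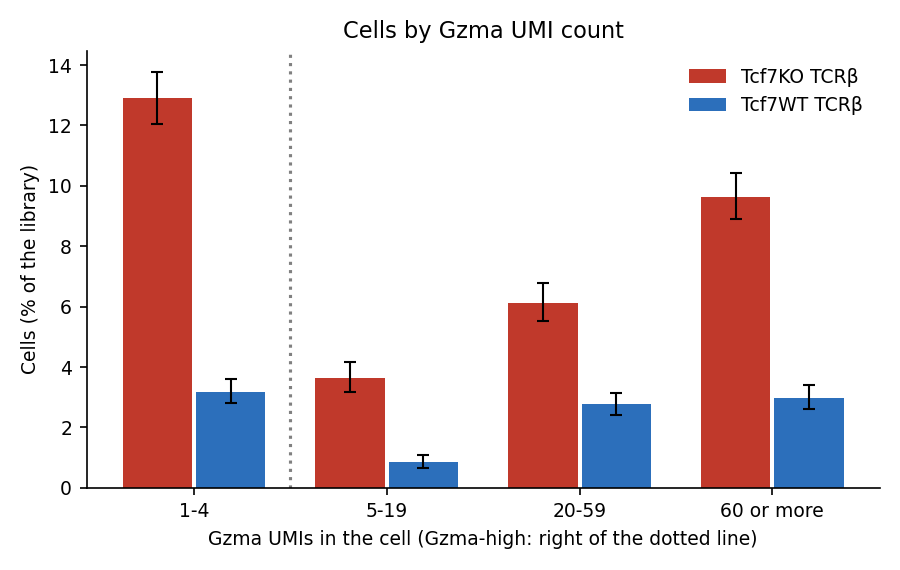
Share of the cells of each TCRβ library (percent, y axis) by Gzma UMIs per cell (x axis), Tcf7KO left of Tcf7WT, with exact binomial 95% intervals for counting error only. Tcf7KO lies above Tcf7WT in each class with a Gzma UMI, and the classes right of the dotted line, which hold the members, sum to 19.4% in Tcf7KO and 6.62% in Tcf7WT.

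Once a cell was Gzma-high, the amount of Gzma was much alike in both genotypes. Members had a median of 59 Gzma UMIs in Tcf7KO (quartiles 27 and 99, maximum 556) and 54 in Tcf7WT (30.5, 88 and 301). Gzma took 1.95% of all UMIs of Tcf7KO members and 2.15% of those of Tcf7WT members, or 19468 and 21530 CPM. Cells with 5 or more Gzma UMIs held 98.0% of all Gzma UMIs in TCRβ Tcf7KO and 97.8% in TCRβ Tcf7WT, so the other cells added little to the library sum. Cells with naive T cell markers were taken as a rough measure of free RNA, on the premise that they lack granzyme A. Among cells with UMIs of 2 or more of 5 naive markers, 13.1% of 145 in Tcf7KO and 4.28% of 187 in Tcf7WT had a Gzma UMI, against 32.5% and 9.94% of all cells of those libraries, at median depths of 3018 and 2591 UMIs against 2860 and 2431. After every cell was thinned to 1624 UMIs, these shares were 10.4% and 3.39%, against 28.7% and 9.37%. Of those naive-marked cells, 6 in Tcf7KO and 1 in Tcf7WT reached 5 Gzma UMIs, so the premise may not hold throughout. Free RNA and low expression were not told apart, and single Gzma UMIs are not read as expression.

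The threshold did not fall in a gap of the other granzyme. In Tcf7KO, cells with 5 to 7 Gzma UMIs (65 cells) had 3196 CPM of Gzmb, and cells with 3 or 4 (96 cells) had 2933 CPM. In Tcf7WT, 12 cells with 5 to 7 Gzma UMIs had 4047 CPM and 11 cells with 3 or 4 had 3506 CPM. Cells just outside the rule thus also held Gzmb well above the level of Gzma-0 cells.

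Gzmb and Tnfrsf9 went with Gzma in both libraries. Gzmb was at 7106 CPM in members and 1099 CPM in Gzma-0 cells of Tcf7KO, and at 6945 CPM in members and 357 CPM in Gzma-0 cells of Tcf7WT. The log2 ratio was 2.69 in Tcf7KO (2.66 to 2.72) and 4.28 in Tcf7WT (4.24 to 4.33), with member levels that were nearly equal and Gzma-0 levels that were not. In thinned cells a Gzmb UMI was found in 92.7% of members and 32.5% of Gzma-0 cells of Tcf7KO, and in 97.7% and 15.6% of those of Tcf7WT (94.1%, 38.4%, 99.0% and 18.2% unthinned). Tnfrsf9, which encodes the costimulatory receptor 4-1BB that T cells gain on activation, was at 312 CPM in members and 65.1 CPM in Gzma-0 cells of Tcf7KO, and at 215 and 46.5 CPM in those of Tcf7WT. Its log2 ratio was 2.26 (2.13 to 2.39) in Tcf7KO and 2.21 (2.02 to 2.40) in Tcf7WT. A Tnfrsf9 UMI was found in 29.7% of thinned members and 6.59% of thinned Gzma-0 cells of Tcf7KO, and in 26.7% and 5.14% of those of Tcf7WT (45.2%, 12.2%, 38.2% and 8.16% unthinned), so most members had no captured Tnfrsf9 transcript.

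Among the members, Gzmb and, less evenly, Tnfrsf9 were higher where Gzma was higher. In Tcf7KO, members with 5 to 19, 20 to 59 and 60 or more Gzma UMIs had 3453, 5625 and 8777 CPM of Gzmb and 120, 219 and 407 CPM of Tnfrsf9. In Tcf7WT the same bins had 5094, 5603 and 8367 CPM of Gzmb and 176, 156 and 268 CPM of Tnfrsf9. Tnfrsf9 did not order the lower 2 bins of Tcf7WT, whose intervals overlapped (120 to 250 and 126 to 192 CPM). Klf2 was lower in the highest than in the lowest of these bins. It was at 231, 209 and 130 CPM in Tcf7KO and at 329, 189 and 176 CPM in Tcf7WT. The 231 and 209 CPM of Tcf7KO and the 189 and 176 CPM of Tcf7WT are close, so a fall at each step is not shown.

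**Figure D2:**
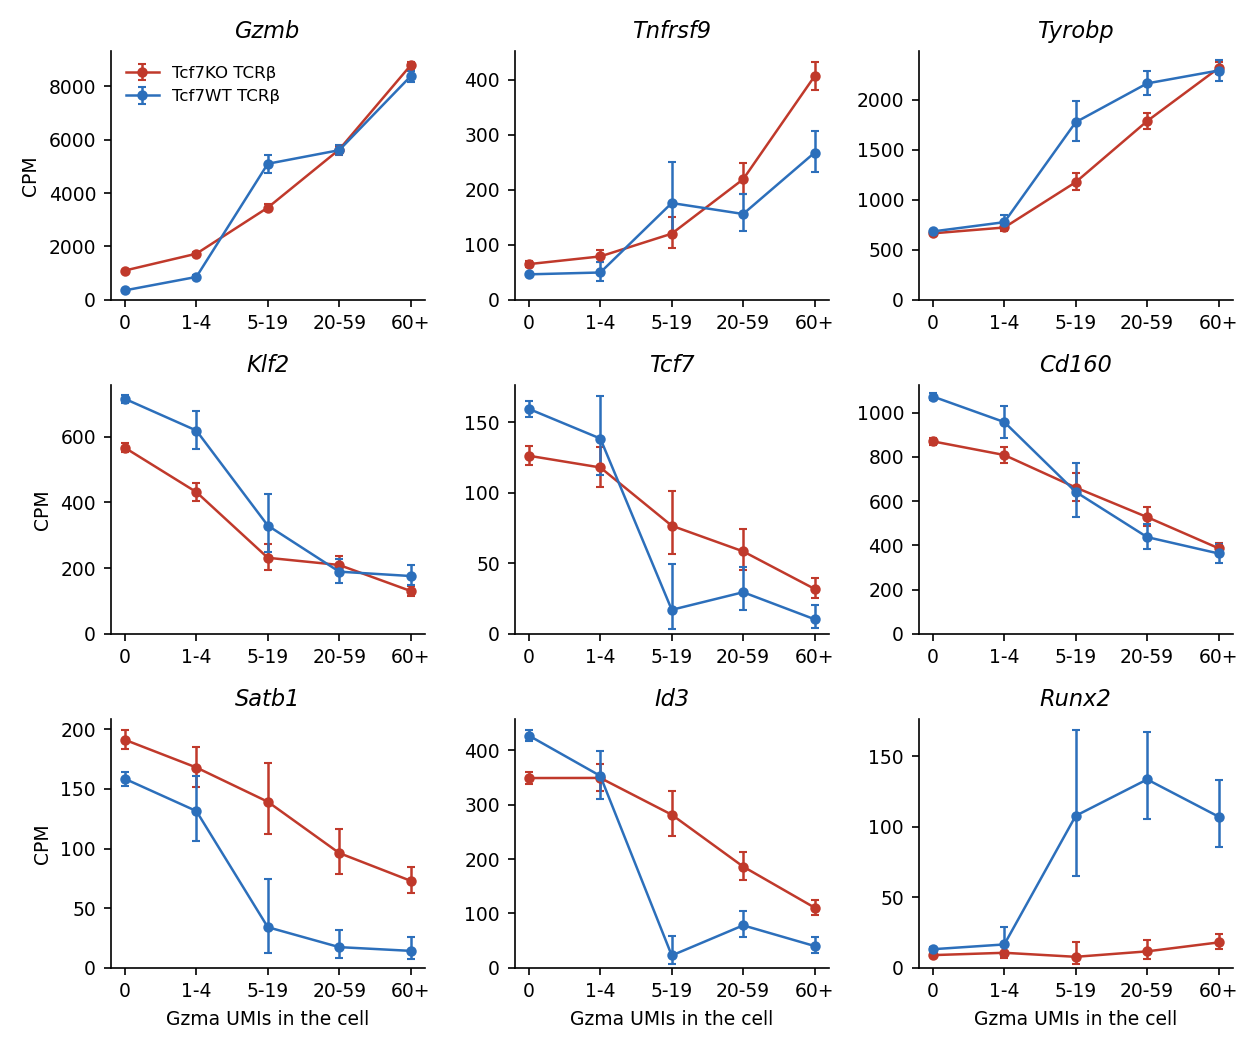
Level in CPM (y axis, from 0) of 9 genes over 5 bins of Gzma UMIs per cell (x axis), with Tcf7KO in red, Tcf7WT in blue and exact Poisson 95% intervals for counting error only. Gzmb and Tnfrsf9 are higher at 60 or more Gzma UMIs than at 0 in both libraries, and Klf2 is lower. Id3 is at 281 CPM in Tcf7KO and 22.7 CPM in Tcf7WT at 5 to 19 Gzma UMIs.

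Against Gzma-0 cells, the members differed in a broad set of genes, more of them lower than higher. With at least 20 UMIs over both classes and a 1.5-fold difference as the limit, 644 of 11694 genes (5.51%) were higher and 1304 (11.2%) lower in members of Tcf7KO, and 1259 of 12159 genes (10.4%) were higher and 2140 (17.6%) lower in members of Tcf7WT. Of 11605 genes measured in both libraries, 406 (3.5%) were higher and 711 (6.13%) lower in both, and 140 were higher in one and lower in the other. Counting noise alone passes this fold for genes with few UMIs. With at least 100 UMIs the counts that agreed in both libraries were 255 higher and 345 lower of 9274. The median log2 ratio over all genes was -0.07 in Tcf7KO and -0.10 in Tcf7WT, near 0.

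**Figure D3:**
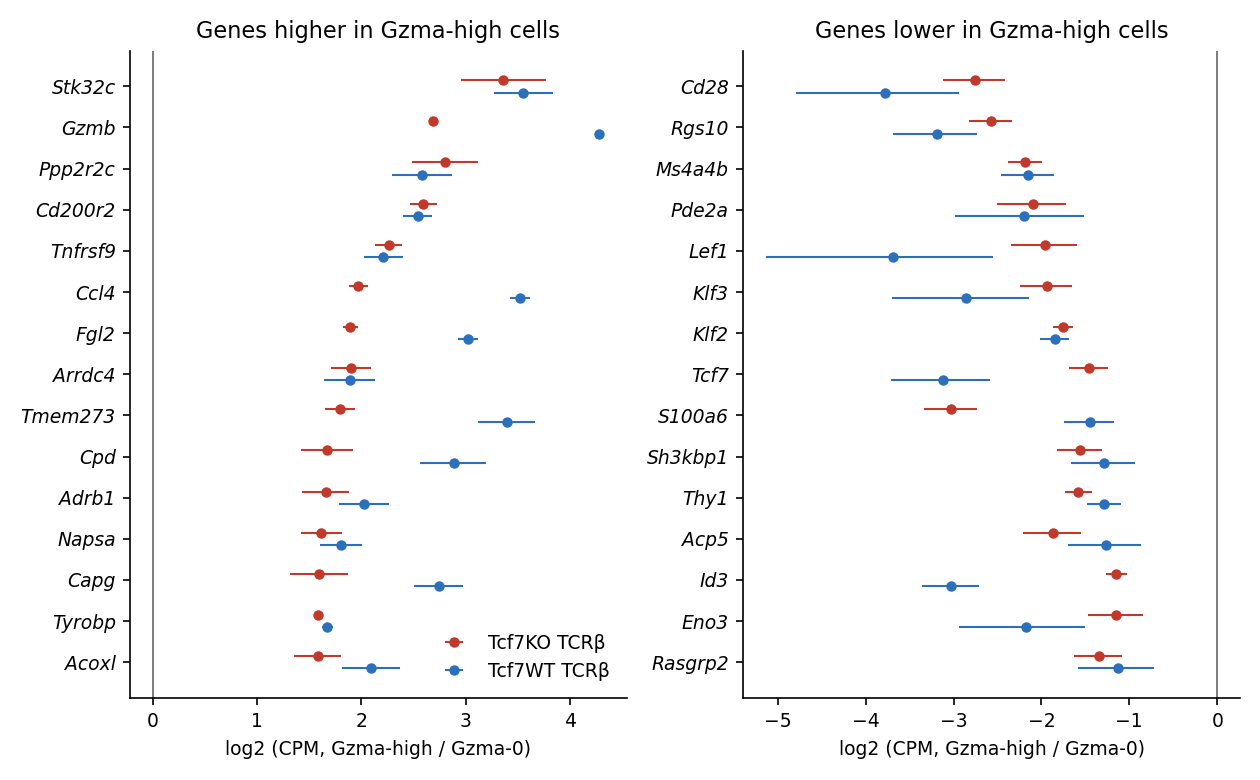
Log2 ratio of members over Gzma-0 cells in Tcf7KO and in Tcf7WT for the 15 highest and 15 lowest genes by the ratio nearer to 0 of the 2 libraries, each reaching 50 CPM in the higher class of both, with exact 95% intervals for counting error only. Stk32c at 3.36 and 3.56, Gzmb at 2.69 and 4.28 and Cd28 at -2.75 and -3.78 are among those farthest from 0.

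The granule list showed which granzymes and granule parts came with Gzma. Of its granzyme and perforin genes besides Gzma, 4 of 5 were higher in Tcf7KO members and 4 of 5 in Tcf7WT members, beside 5.51% and 10.4% of all genes, with medians of 2.01 and 3.71. The remaining gene, Gzmm, was at 2.42 CPM in members and 3.79 CPM in Gzma-0 cells of Tcf7KO, and at 3.93 and 2.72 CPM in those of Tcf7WT. Gzmc was at 103 CPM in members and 18.4 CPM in Gzma-0 cells of Tcf7KO, and at 68.2 and 5.22 CPM in those of Tcf7WT. Its reads can be shared with Gzmb, a close paralog, so its level is uncertain. Prf1, perforin, was at 23.2 CPM in members and 15 CPM in Gzma-0 cells of Tcf7KO, and at 38.0 and 9.77 CPM in those of Tcf7WT, a smaller log2 ratio than those of Gzmb, Gzmc and Gzmk in both libraries. Gzmk was scarce, with 3.38 CPM in members and 0.843 CPM in Gzma-0 cells of Tcf7KO and 17.0 and 1.22 CPM in those of Tcf7WT. Granule matrix, protease and serpin genes differed less: 5 of 18 were higher in Tcf7KO and 6 of 18 in Tcf7WT, none was lower, and the medians were 0.30 and 0.41. Serpina3g, a serine protease inhibitor gene, stood highest among them, with 470 CPM in members and 212 CPM in Gzma-0 cells of Tcf7KO and 505 and 177 CPM in those of Tcf7WT. Srgn, the proteoglycan that packs granzymes, was at 1742 and 1434 CPM in members and Gzma-0 cells of Tcf7KO and at 1669 and 1406 CPM in those of Tcf7WT, under the 1.5-fold limit. Gzma-0 cells therefore also carried transcripts of the general granule parts.

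Among secreted ligands, the chemokine genes Ccl5 and Ccl4 stood out, but the chemokine gene Xcl1 did not (log2 0.25 in Tcf7KO and -0.63 in Tcf7WT). Ccl5, a chemokine of effector and memory T cells, was at 22769 CPM in members and 9236 CPM in Gzma-0 cells of Tcf7KO, and at 33998 and 6044 CPM in those of Tcf7WT. Ccl4, a chemokine that attracts monocytes and T cells, was at 541 and 138 CPM in members and Gzma-0 cells of Tcf7KO and at 1173 and 102 CPM in those of Tcf7WT (log2 1.97 and 3.52). Fasl, the ligand of the death receptor Fas, was at 238 and 161 CPM in members and Gzma-0 cells of Tcf7KO and at 220 and 83.1 CPM in those of Tcf7WT. Ltb, lymphotoxin β, was lower in members: 261 CPM against 493 CPM in Gzma-0 cells of Tcf7KO, and 177 CPM against 534 CPM in those of Tcf7WT. Of the whole list of death ligands and cytokines, 4 of 13 were higher and 3 lower in Tcf7KO members, and 7 of 14 were higher and 5 lower in Tcf7WT members, beside 5.51% higher and 11.2% lower of all genes in Tcf7KO and 10.4% and 17.6% in Tcf7WT. The list had no common direction, with medians of 0.25 and 0.32. Fgl2, whose secreted protein is known as an immune regulator, was at 824 and 222 CPM in members and Gzma-0 cells of Tcf7KO and at 1010 and 124 CPM in those of Tcf7WT.

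Receptors and adaptors first known from NK cells were higher in part. Tyrobp, which encodes the signalling adaptor DAP12, was at 2000 CPM in members and 666 CPM in Gzma-0 cells of Tcf7KO, and at 2187 and 685 CPM in those of Tcf7WT. Fcgr3, an Fc receptor that pairs with the adaptor encoded by Fcer1g, was at 63.8 and 14 CPM in members and Gzma-0 cells of Tcf7KO and at 45.9 and 8.99 CPM in those of Tcf7WT. Klre1, a lectin-like receptor gene, was at 346 and 150 CPM in members and Gzma-0 cells of Tcf7KO and at 600 and 177 CPM in those of Tcf7WT. Klra5, of the Ly49 family, was at 593 and 185 CPM in Tcf7KO and at 501 and 242 CPM in Tcf7WT, but Ly49 genes are near-copies of each other and reads may be split among them. Klrk1, which encodes NKG2D, went the other way, with 18.1 and 64.3 CPM in members and Gzma-0 cells of Tcf7KO and 38.7 and 75.8 CPM in those of Tcf7WT. Over the list, 10 of 23 genes were higher and 3 lower in Tcf7KO members, and 9 of 22 were higher and 6 lower in Tcf7WT members (medians 0.14 and 0.37). Its higher calls stood beside 5.51% and 10.4% of all genes, and its lower calls beside 11.2% and 17.6%, which in Tcf7KO is near the share of the list. Itgax, an integrin gene also listed as a myeloid marker, was at 31.7 and 5.98 CPM in members and Gzma-0 cells of Tcf7KO and at 92.4 and 5.83 CPM in those of Tcf7WT. The myeloid list, of which 2 of 7 genes were listed, summed to 35.3 and 95.7 CPM in Tcf7KO and Tcf7WT members, most of it Itgax, against 8.01 and 8.05 CPM in Gzma-0 cells, and its part in the result was not tested.

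Some inhibitory receptor genes were higher in members and some lower, while most called costimulator genes other than Tnfrsf9 were lower. Lag3 was at 187 CPM in members and 102 CPM in Gzma-0 cells of Tcf7KO, and at 243 and 90.03 CPM in those of Tcf7WT. Lilrb4a, an inhibitory leukocyte receptor gene, was at 71.3 and 24.3 CPM in Tcf7KO and at 81.3 and 19.8 CPM in Tcf7WT. Cd160 was lower, with 467 and 870 CPM in members and Gzma-0 cells of Tcf7KO and 423 and 1073 CPM in those of Tcf7WT, and Pdcd1, which encodes PD-1, was at 14.5 and 35.5 CPM in Tcf7KO and at 1.31 and 13.8 CPM in Tcf7WT. In all, 5 of 16 inhibitory and exhaustion genes were higher and 3 lower in Tcf7KO members, and 7 of 17 were higher and 3 lower in Tcf7WT members. Of all genes, 5.51% were higher in Tcf7KO members and 10.4% in Tcf7WT members, below the shares of higher genes in this list. Beside 11.2% and 17.6% of all genes, the shares of lower genes in this list were near the background. In the TNF receptor and costimulator list, Tnfrsf9 was the 1 of 15 genes higher in Tcf7KO members, while 6 were lower. In Tcf7WT 2 of 15 were higher and 8 lower, beside the same 17.6% of all genes lower. The shares of higher genes in the costimulator list were near the 5.51% and 10.4% of all genes. Cd28, the main costimulatory receptor of naive T cells, was at 17.4 and 117 CPM in members and Gzma-0 cells of Tcf7KO and at 7.21 and 99.3 CPM in those of Tcf7WT, and Cd5, which dampens T cell receptor signals, was at 1.93 and 17.3 CPM in Tcf7KO and at 2.62 and 19.7 CPM in Tcf7WT.

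Genes of naive and memory T cells were the most uniform group, and they were lower in the members. Of this list, 18 of 24 genes were lower and none higher in Tcf7KO members, and 21 of 25 were lower and none higher in Tcf7WT members, beside 11.2% and 17.6% of all genes. The list medians were -1.61 and -2.46. Tcf7 itself was at 45.9 CPM in members and 126 CPM in Gzma-0 cells of Tcf7KO, and at 18.4 and 159 CPM in those of Tcf7WT, and in thinned cells a Tcf7 UMI was found in 6.18% and 18.8% of those of Tcf7KO and in 2.09% and 22.1% of those of Tcf7WT. Its partner Lef1 was at 15.7 and 61.0 CPM in Tcf7KO and at 3.93 and 50.5 CPM in Tcf7WT. Klf2, a factor that drives genes of T cell circulation, was at 167 CPM in members and 566 CPM in Gzma-0 cells of Tcf7KO, and at 199 and 715 CPM in those of Tcf7WT. S1pr1, the receptor that draws T cells out of tissue and a target of Klf2, was at 5.32 and 52.3 CPM in Tcf7KO and at 3.28 and 41.7 CPM in Tcf7WT. Il7r was at 14.5 and 57.3 CPM in members and Gzma-0 cells of Tcf7KO and at 3.28 and 49.2 CPM in those of Tcf7WT. By contrast Il2rb, the β chain shared by the IL-2 and IL-15 receptors, was higher, with 556 and 248 CPM in Tcf7KO and 469 and 187 CPM in Tcf7WT. Part of the Gzma-0 cells were naive-marked, and the 5 naive markers summed to 26.4 and 10.5 CPM in Tcf7KO and Tcf7WT members against 121 and 109 CPM in Gzma-0 cells. With every cell that had a UMI of a naive marker taken out of the Gzma-0 cells, which left 3251 and 5983, the list medians were nearer to 0, at -0.64 in Tcf7KO and -1.42 in Tcf7WT. The log2 ratios in Tcf7KO and Tcf7WT were then -1.16 and -1.35 for Klf2, against -1.76 and -1.85 with all Gzma-0 cells. For S1pr1 they were -2.24 and -2.92, against -3.30 and -3.67, and for Il7r -1.04 and -3.01, against -1.98 and -3.91. Tcf7 moved little, at -1.33 and -3.06 against -1.46 and -3.12. The naive markers are themselves on this list, so part of the shift of its median follows from the removal.

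Among transcription factors of effector cells, Prdm1 was higher in members of both libraries. Prdm1, which encodes Blimp-1, was at 49.1 CPM in members and 9.44 CPM in Gzma-0 cells of Tcf7KO, and at 89.8 and 6.83 CPM in those of Tcf7WT. Irf8 was at 231 and 108 CPM in Tcf7KO and at 189 and 92.4 CPM in Tcf7WT. Runx3, the RUNX factor that CD8 T cells depend on, was nearly level, at 1253 and 1229 CPM in members and Gzma-0 cells of Tcf7KO and at 1083 and 1106 CPM in those of Tcf7WT. Tbx21, which encodes T-bet, was at 91.6 and 65.9 CPM in Tcf7KO and at 88.5 and 70.7 CPM in Tcf7WT, under the 1.5-fold limit. Ahr, the receptor for aryl hydrocarbons that intestinal IELs need, was lower, with 234 and 378 CPM in members and Gzma-0 cells of Tcf7KO and 210 and 414 CPM in those of Tcf7WT. In this list of factors 5 of 22 were higher and 3 lower in Tcf7KO members, and 7 of 22 were higher and 4 lower in Tcf7WT members. The higher calls stood beside 5.51% and 10.4% of all genes, and the lower calls were near the background of 11.2% and 17.6%. Of T cell receptor signalling genes 1 of 29 was higher and 5 lower in Tcf7KO, and 2 of 29 were higher and 7 lower in Tcf7WT, with medians of -0.08 and -0.17 beside -0.07 and -0.10 over all genes.

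Several of the genes with the largest ratios in both libraries encode a kinase, a phosphatase subunit and surface receptors. Stk32c, a serine/threonine kinase gene, ranked first by the value nearer to 0, once each library's higher class was required to reach 50 CPM and a UMI in 10% of its cells, with 56.1 CPM in members and 5.48 CPM in Gzma-0 cells of Tcf7KO, and 137 and 11.7 CPM in those of Tcf7WT. Ppp2r2c, a regulatory subunit gene of protein phosphatase PP2A, was at 71.6 and 10.3 CPM in Tcf7KO and at 99.6 and 16.6 CPM in Tcf7WT. Cd200r2, of the CD200 receptor family whose members are much alike in sequence, was at 376 and 62.3 CPM in members and Gzma-0 cells of Tcf7KO and at 425 and 73.0 CPM in those of Tcf7WT. Adrb1, the β1-adrenergic receptor gene, was at 81.9 and 26.0 CPM in Tcf7KO and at 130 and 32.0 CPM in Tcf7WT. The other named genes of this group were Arrdc4, Tmem273, Cpd, Napsa, Capg and Acoxl, whose log2 ratios spanned 1.58 to 1.90 in Tcf7KO and 1.81 to 3.39 in Tcf7WT. On the lower side, besides those already given, stood Rgs10, Ms4a4b, Pde2a, Klf3, S100a6, Sh3kbp1, Thy1, Acp5, Id3, Eno3 and Rasgrp2, whose log2 ratios spanned -3.02 to -1.15 in Tcf7KO and -3.19 to -1.13 in Tcf7WT. Thy1, the T cell surface protein often absent from IELs, was at 95 and 284 CPM in members and Gzma-0 cells of Tcf7KO and at 148 and 361 CPM in those of Tcf7WT.

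Cd8a was higher and Cd8b1 lower in members than in Gzma-0 cells, and the few members with a Cd8b1 UMI differed from the rest. Cd8a was at 1835 CPM in members and 1242 CPM in Gzma-0 cells of Tcf7KO, just under the 1.5-fold limit, and at 1974 and 1296 CPM in those of Tcf7WT. Cd8b1, the CD8β chain of conventional CD8 T cells, was at 54.1 and 104 CPM in Tcf7KO and at 33.4 and 121 CPM in Tcf7WT. A Cd8b1 UMI was found in 81 members of Tcf7KO (7.21%) and 16 of Tcf7WT (3.18%), against 11.7% and 10.7% of Gzma-0 cells. At this depth a cell without a Cd8b1 UMI cannot be called CD8αα. These members had fewer Gzma UMIs, with a median of 39 against 61 in the members without Cd8b1 in Tcf7KO, and 20 against 55 in Tcf7WT. They also had more Klf2, with 458 CPM against 140 CPM in Tcf7KO and 1150 CPM against 160 CPM in Tcf7WT, more Ms4a4b, with 301 against 33.9 CPM and 811 against 32.7 CPM, and more Cd28, with 107 against 8.99 CPM and 118 against 2.73 CPM. In Tcf7WT the 16 members with Cd8b1 summed to only 59153 UMIs, and all members together held 11 Cd28 UMIs, so the size of that Cd28 contrast is uncertain. Gzmb was lower in them, at 5384 against 7268 CPM in Tcf7KO and 4683 against 7037 CPM in Tcf7WT. For Id3 in Tcf7KO, the log2 ratio of members with over those without Cd8b1 was near 0, at -0.03 (-0.45 to 0.37). Runx2 in the same library had a ratio of 0.68 (-0.60 to 1.76). Among Tcf7WT members, Id3 was at -0.65 (-3.72 to 1.25) and Runx2 at 0.01 (-1.32 to 1.09). Apart from Id3 in Tcf7KO, these intervals passed 1.5-fold in both directions, so they cannot show whether the genes followed this division.

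Between the genotypes, Tcf7KO members had more transcripts of Satb1, Ccdc80, Rbpms, Cd9 and Id3, and fewer of Runx2, the metallothioneins, Pmaip1 and Lgals1. Of 10105 genes with at least 20 UMIs over the members of both libraries, 729 (7.21%) were at least 1.5-fold higher and 769 (7.61%) at least 1.5-fold lower in Tcf7KO members, and with at least 100 UMIs 254 and 234 of 6989. In Gzma-0 cells 453 of 12687 genes (3.57%) were higher and 746 (5.88%) lower, but those sums are deeper, so the counts of both classes cannot be compared directly. The median log2 ratio was -0.01 in members and -0.06 in Gzma-0 cells. The members of the Tcf7WT library stood apart in ribosomal RNA. Rn18s was at 3938 CPM in Tcf7KO members and 9412 CPM in Tcf7WT members, against 3581 and 3702 CPM in Gzma-0 cells, and Rn45s was at 7647 and 16089 CPM in members against 7672 and 8141 CPM. Of the members, 24.0% in Tcf7KO and 51.1% in Tcf7WT had more than 15000 CPM of both together. Heat shock genes, a sign of cell handling, summed to 9152 CPM in Tcf7KO members and 5919 CPM in Tcf7WT members, against 10146 and 9744 CPM in Gzma-0 cells, and their part in the genotype differences was not tested.

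The genes higher in Tcf7KO members were led by Satb1, a chromatin organiser of T cells. It was at 89.4 CPM in Tcf7KO members and 17.7 CPM in Tcf7WT members, a log2 ratio of 2.34 (1.77 to 2.96), and at 191 and 158 CPM in the Gzma-0 cells, a ratio of 0.27. Id3, an inhibitor of E protein transcription factors, was at 157 CPM in Tcf7KO members and 52.4 CPM in Tcf7WT members (log2 1.59, 1.25 to 1.94), and at 349 and 427 CPM in the Gzma-0 cells. Both genes were thus lower in members than in Gzma-0 cells of either library, and by less in Tcf7KO. Cd9, a tetraspanin gene, was at 74.2 and 21.6 CPM in members of Tcf7KO and Tcf7WT, and at 71.3 and 72.4 CPM in the Gzma-0 cells. Rbpms, an RNA-binding protein gene, was at 56.3 and 13.8 CPM in members and at 44.5 CPM in the Gzma-0 cells of both. Ccdc80, which encodes a secreted matrix protein, was at 98.1 and 21.6 CPM in members of Tcf7KO and Tcf7WT, and at 35.3 and 51.1 CPM in their Gzma-0 cells. The other named genes were Arhgap5, P4ha2, Plac8, Pdlim1, Igtp, Slc5a3 and Elmsan1, with log2 ratios of 1.04 to 1.36. None of the 12 was 1.5-fold higher in Gzma-0 cells, where 3.57% of all genes were, so this count is near that share.

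Tcf7 was also higher in the Tcf7KO members. It was at 45.9 CPM in Tcf7KO members and 18.4 CPM in Tcf7WT members (190 and 28 UMIs, log2 1.32, 0.75 to 1.95), whereas Gzma-0 cells had 126 CPM in Tcf7KO and 159 CPM in Tcf7WT (log2 -0.34, -0.43 to -0.25). The members were thus higher in the library labelled Tcf7KO and the Gzma-0 cells lower, and neither value shows how much of the gene was deleted. In the naive and memory list, 10 of 19 genes were higher and 2 lower in Tcf7KO members, beside 7.21% and 7.61% of all genes, with a median of 0.59. In Gzma-0 cells 1 of 26 was higher and 4 lower, beside 3.57% and 5.88% of all genes there, with a median of -0.14. The 1 higher gene is near that background. Il7r was at 14.5 CPM in Tcf7KO members and 3.28 CPM in Tcf7WT members, and Lef1 at 15.7 and 3.93 CPM, but the Tcf7WT values rest on 5 and 6 UMIs. The intermediate cells differed in the same way: at 5 to 19 Gzma UMIs, Id3 was at 281 CPM in Tcf7KO and 22.7 CPM in Tcf7WT (6.19 to 58.2), and Satb1 at 139 and 34.1 CPM.

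Among the genes lower in Tcf7KO members, Runx2 had one of the largest differences. This RUNX family member, best known from bone, was at 14.7 CPM in Tcf7KO members and 117 CPM in Tcf7WT members (log2 -2.99, -3.44 to -2.57), and at 9.02 and 13.2 CPM in the Gzma-0 cells. In thinned cells a Runx2 UMI was found in 2.15% of Tcf7KO members and 16.7% of Tcf7WT members. Of these 4 classes, the Tcf7WT members had the highest Runx2 level, 8.88-fold that of their own Gzma-0 cells. The metallothionein genes Mt1 and Mt2, which are close paralogs, were at 16.4 and 6.29 CPM in Tcf7KO members against 121 and 79.3 CPM in Tcf7WT members. Pmaip1, which encodes the BCL-2 family member NOXA, was at 14 and 65.6 CPM, and Lgals1, galectin-1, at 13.5 and 78.7 CPM, in Tcf7KO and Tcf7WT members. Casp1, the inflammasome caspase gene, was at 19.6 and 59.7 CPM in Tcf7KO and Tcf7WT members. The other named genes were Nap1l3, Selenom, Klra13-ps, Cela1, Bcl2l15 and Itgad, with log2 ratios of -2.99 to -1.58. Of the 12, 3 were 1.5-fold lower in Tcf7KO than in Tcf7WT Gzma-0 cells too, beside 5.88% of all genes.

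**Figure D4:**
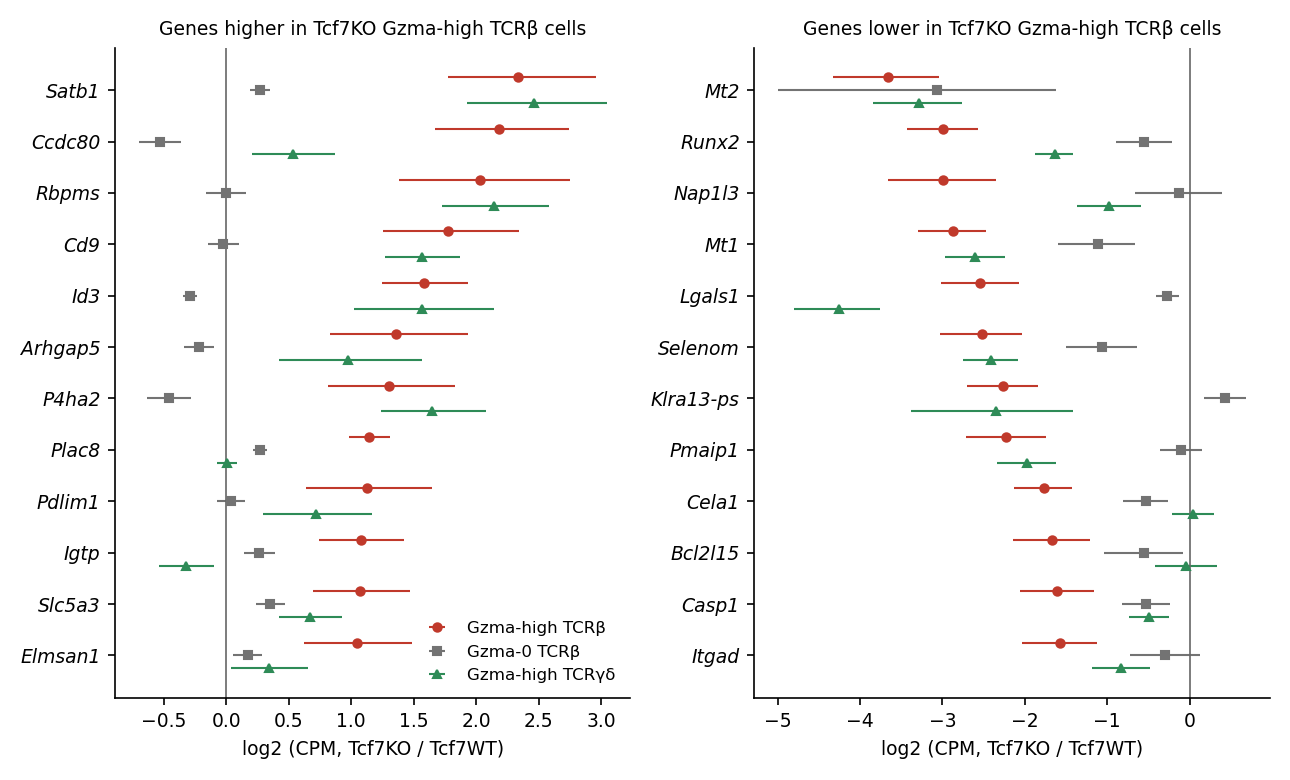
Log2 ratio of Tcf7KO over Tcf7WT for the 12 highest and 12 lowest genes in TCRβ members, beside the same ratio in TCRβ Gzma-0 cells and in TCRγδ Gzma-high cells, with exact 95% intervals for counting error only. Satb1 is at 2.34, 0.27 and 2.46 and Runx2 at -2.99, -0.55 and -1.64 in these classes.

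The same genes could be read in the Gzma-high cells of the TCRγδ libraries, which are separate cells with the same genotype labels. Of the 12 genes higher in TCRβ Tcf7KO members, 8 were 1.5-fold higher in TCRγδ Tcf7KO, beside 6.14% of 10689 genes, with a median log2 ratio of 0.85. Of the 12 lower genes 9 were 1.5-fold lower, beside 8.35% of all genes, with a median of -1.81. None went the opposite way by 1.5-fold. Satb1 was at 53.4 CPM in TCRγδ Tcf7KO and 9.67 CPM in TCRγδ Tcf7WT, Id3 at 31.4 and 10.6 CPM, Runx2 at 44.6 and 139 CPM and Mt1 at 15.2 and 92.3 CPM. Plac8 and Igtp, with log2 ratios of 1.15 and 1.08 in TCRβ members, were at 0.01 and -0.32 in TCRγδ cells. Cela1 and Bcl2l15, with -1.77 and -1.67 in TCRβ members, were at 0.04 and -0.05. Tcf7 was at 9.17 CPM in TCRγδ Tcf7KO and 6.24 CPM in TCRγδ Tcf7WT, below the TCRβ members of either genotype, with an interval of the log2 ratio of -0.22 to 1.38.

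The genotype values were also read within the members on either side of the ribosomal RNA limit. Among members at or under 15000 CPM, Satb1 was at 91.6 CPM in Tcf7KO and 15.1 CPM in Tcf7WT, Id3 at 157 and 54.8 CPM, Runx2 at 13.6 and 110 CPM and Mt1 at 17.1 and 119 CPM. Among members over the limit, Satb1 was at 82.9 and 20.1 CPM, Id3 at 158 and 50.2 CPM, Runx2 at 18.3 and 124 CPM and Mt1 at 14.5 and 122 CPM. These 4 genes had the same direction on either side. They were picked from the genes with the largest genotype ratios and do not stand for the other genes. Of the 729 genes higher and 769 lower in Tcf7KO members, 430 and 443 were called again in members at or under the limit. Those members numbered 854 in Tcf7KO and 246 in Tcf7WT, so their sums are shallower. The part of ribosomal RNA in the genotype differences was not tested. Of the 56 Lgals1 UMIs of Tcf7KO members, 40 came from the 81 cells with Cd8b1. Among members without Cd8b1, Lgals1 was at 4.23 CPM in Tcf7KO and 64.1 CPM in Tcf7WT.

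Cytotoxic genes did not share a direction between the genotypes. Gzmb was at 7106 CPM in Tcf7KO members and 6945 CPM in Tcf7WT members (log2 0.03, 0.00 to 0.07), while in Gzma-0 cells it was at 1099 and 357 CPM (log2 1.62, 1.58 to 1.67). Among granule matrix, protease and serpin genes none of 18 passed 1.5-fold in either direction, with a median of -0.09. Of the other granzymes and perforin, Gzmc was higher, at 103 CPM in Tcf7KO members and 68.2 CPM in Tcf7WT members, while Prf1 was lower, at 23.2 and 38.0 CPM, and so was Gzmk, at 3.38 and 17.0 CPM. The chemokine gene Ccl4 was lower too, at 541 CPM in Tcf7KO members and 1173 CPM in Tcf7WT members. Ifng, interferon γ, was at 39.2 CPM in Tcf7KO members and 93.7 CPM in Tcf7WT members, and Xcl1, a chemokine for cross-presenting dendritic cells, was higher in Tcf7KO members, at 1963 and 1098 CPM. Of 13 death ligands and cytokines, 3 were higher and 5 lower in Tcf7KO members, beside 7.21% and 7.61% of all genes. Tnfrsf9 was at 312 and 215 CPM in Tcf7KO and Tcf7WT members, a log2 ratio of 0.54 (0.36 to 0.72), and its ratio in Gzma-0 cells was 0.49. T cell receptor signalling genes were level, with none of 27 past the limit.

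MHC class II and cell cycle genes were lower in Tcf7KO members. Of 5 MHC class II genes, 4 were lower and none higher, beside 7.61% of all genes lower, with a median of -2.70: H2-Ab1 was at 6.04 CPM in Tcf7KO members and 39.3 CPM in Tcf7WT members, and H2-Eb1 at 4.35 and 46.5 CPM. The lower MHC class II level was not particular to members. In Tcf7KO Gzma-0 cells 3 of 6 of these genes were lower and none higher, beside 5.88% of all genes lower (median -0.97). In TCRγδ Gzma-high cells 5 of 7 were lower and none higher, beside 8.35% of all genes lower (median -4.26). Of 14 BCL-2 family genes 5 were lower and 1 higher in Tcf7KO members, beside 7.61% and 7.21% of all genes, but the list had no common direction, with a median of -0.0029. The cell cycle list was lower in Tcf7KO members, with 19 of 32 genes lower and 1 higher beside 7.61% and 7.21% of all genes, and a median of -0.72. Top2a was at 22.2 CPM in Tcf7KO members and 66.2 CPM in Tcf7WT members, and Mki67 at 20.1 and 47.9 CPM. Cells with 2 or more UMIs over 11 proliferation genes numbered 29 of the Tcf7KO members (2.58%, 1.74 to 3.69%) and 23 of the Tcf7WT members (4.57%, 2.92 to 6.78%), and their intervals overlapped. Without those cells the list median was -0.32, and among members with 5 to 14 Gzma UMIs it was 0.06. In TCRγδ Gzma-high cells the list ran the other way, with 17 of 35 genes higher and none lower in Tcf7KO, beside 6.14% and 8.35% of all genes, and a median of 0.52. Within libraries, 17 of 38 cell cycle genes were lower and none higher in Tcf7KO members than in Gzma-0 cells, whereas 16 of 38 were higher and 2 lower in Tcf7WT members, beside 11.2% of all genes lower in Tcf7KO and 10.4% higher in Tcf7WT.

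**Figure D5:**
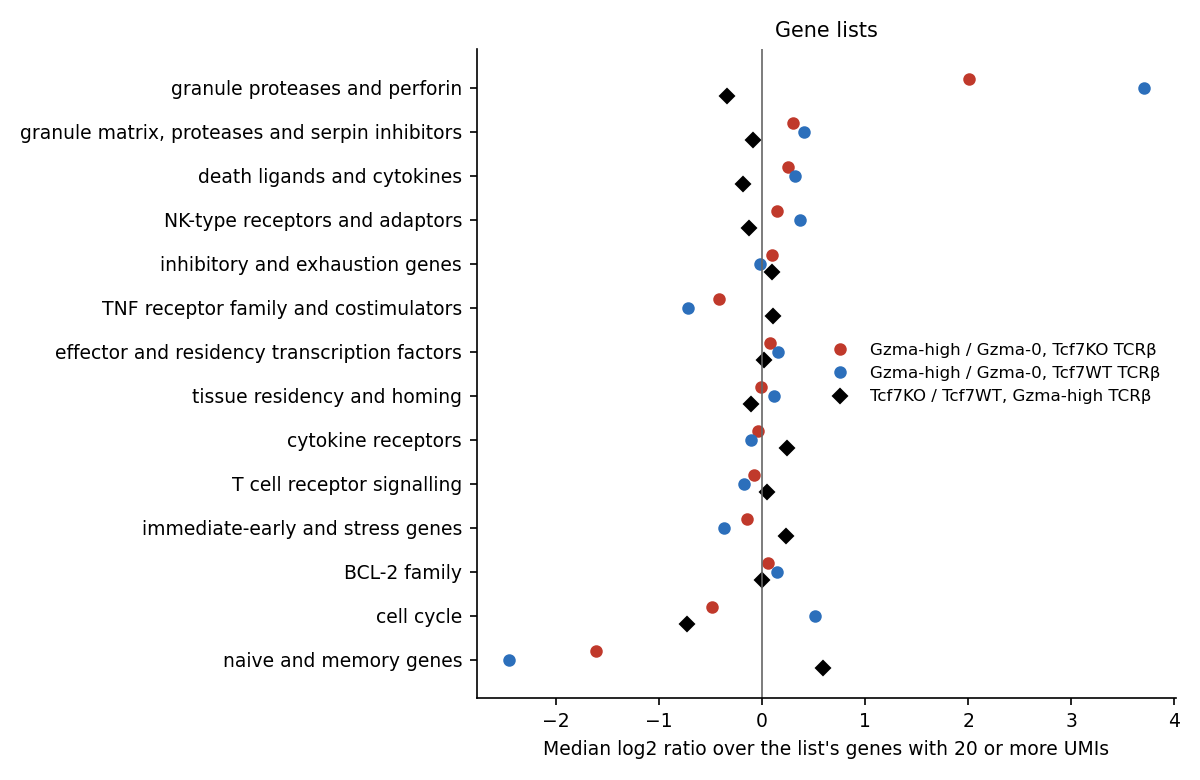
Median log2 ratio (x axis) of 14 gene lists (y axis) for members over Gzma-0 cells in Tcf7KO and in Tcf7WT, and for Tcf7KO over Tcf7WT within members. Naive and memory genes are at -1.61, -2.46 and 0.59 and granule proteases and perforin at 2.01, 3.71 and -0.34.

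The size of the genotype difference could also be set against that of Gzma-0 cells gene by gene. For this, a gene needed at least 50 CPM, and a UMI in 10% of cells, in the higher genotype among members and again among Gzma-0 cells, which left out genes scarce in Gzma-0 cells such as Ccdc80 and Runx2. Beyond Satb1 and Id3, whose log2 ratios were 2.07 and 1.88 higher in members than in Gzma-0 cells, the highest of these genes were Cd9, Arhgap5 and Kit, at 1.80, 1.58 and 1.41. Kit, a growth factor receptor gene also listed as a mast cell marker, was at 120 CPM in Tcf7KO members and 62.9 CPM in Tcf7WT members, and at 130 and 181 CPM in Gzma-0 cells. The lowest were Tmem273, Gzmb, Ccl4, Ptger4 and Ctla4, at -1.60, -1.59, -1.55, -1.43 and -1.37. For Tmem273, Gzmb, Ptger4 and Ctla4 the genotypes lay further apart in Gzma-0 cells than in members, by a log2 ratio of 2.21 against 0.61 for Tmem273. Ptger4, a prostaglandin E2 receptor gene, was at 189 CPM in Tcf7KO members and 235 CPM in Tcf7WT members, against 93.1 and 43.0 CPM in the Gzma-0 cells. Ctla4, an inhibitory receptor gene, was at 75.7 and 99.6 CPM in members and at 101 and 51.6 CPM in Gzma-0 cells of Tcf7KO and Tcf7WT.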

How the data were processed

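Poly(A) RNA of sorted colon IELs was made into 4 droplet libraries with a 10x 3′ kit (v2), per the labels' protocols. The authors deposited 1 matrix of whole-number UMI counts per library, which hold gene symbols and no mitochondrial or ribosomal protein genes. Seurat 3.0.0 and the builds GRCm38 and mm10 are named in the submitters' processing notes, without their roles. The aligner is not given in the sources used here. No columns of other samples were present (0 unused).

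The members and all lists were chosen with earlier results of these data known. Cells were classed by Gzma (minimum 5) and Cd3e (minimum 1) UMIs, and UMIs were summed per class and library with Python 3.11.15, numpy 2.4.6, scipy 1.17.1 and pandas 2.3.3. CPM is counts per 1000000 UMIs of the class, with exact Poisson intervals. Log2 ratios of CPM have exact conditional intervals, and shares of cells have exact Clopper-Pearson intervals. All are at 95% and cover the error of counting alone. No test was made, since each group is 1 library, and "called" means a 1.5-fold difference with at least 20 UMIs over both classes. Member totals of 4136778 and 1525477 UMIs in Tcf7KO and Tcf7WT set the precision. A count of 0 was given a floor of 3 counts. To compare detection, each cell was thinned at random to 1624 UMIs, which is percentile 10 of the depth in TCRβ Tcf7WT, and shallower cells were left out.

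Genes were named by size: with at least 100 UMIs, 50 CPM and 10% of cells in the higher class, the 15 highest and 15 lowest members over Gzma-0 by the ratio nearer to 0, the 12 highest and 12 lowest between genotypes, and the 5 highest and 5 lowest differences of the genotype ratio between classes, with these limits met in each comparison ranked. Receptor segments, sex genes and unnamed models were left out of this ranking. Up to 6 members of a list with at least 50 UMIs, and defining members whatever their values, could be added. Genes named beyond this, such as Gzmk, Gzmm, Cd5 and Lilrb4a, were chosen after their values were seen. Some genes of the lists are counted but not reported here by name.

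Alternatives were other Gzma limits, scalings by TMM (edgeR 4.0.16, R 4.3.3), DESeq2 1.42.0 size factors and reduced totals, equal cell weights, thinned cells, 500 to 3500 genes, other comparison cells, a matched Gzma range, and removal of cells with other-type, cycling, Cd8b1 or high ribosomal RNA signal. Scrublet (scanpy 1.11.5) marked 1 cell in each TCRβ library, so it did not work here and no doublets were removed. Gene coordinates come from GENCODE M21 on GRCm38, in which 97.7% of the symbols were found, and promoter sequences from RefSeq (GRCm38.p6). The counting steps were tested on simulated data.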

Additional observations from a re-analysis of the deposited data

Results flagged for a closer look

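Some genes stood on opposite sides of 0 in the 2 libraries when members were set against Gzma-0 cells, with intervals that excluded 0 in both. The differences between the libraries were not tested, since each genotype is 1 library. Higher in members of Tcf7KO and lower in members of Tcf7WT were Ccdc80 (log2 1.48 in Tcf7KO and -1.24 in Tcf7WT), P4ha2 (0.91 and -0.85), Plac8 (0.29 and -0.58), Rbpms (0.34 and -1.69) and Xcl1 (0.25 and -0.63). Lower in members of Tcf7KO and higher in members of Tcf7WT were Ccr9, a gut-homing receptor gene (-0.44 in Tcf7KO and 0.63 in Tcf7WT), Ctla4 (-0.42 and 0.95), Ifng (-0.49 and 0.61), Mki67 (-0.48 and 1.54) and Top2a (-0.87 and 1.22). The median of the cell cycle list was -0.49 in Tcf7KO and 0.51 in Tcf7WT. No outlier within a group could be looked for with 1 library per group.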

How the results depend on the processing

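The ratio of the Gzma-high shares, 2.93 for Tcf7KO over Tcf7WT, was 2.56 without cells with other-type markers and 4.33 in cells low in ribosomal RNA, where the shares were 18.9% and 4.36%, and 2.77 to 3.12 under the other alternatives. With at least 100 UMIs, both the genes counted and the share past 1.5-fold fell: 255 higher and 345 lower of 9274 in members than in Gzma-0 cells of both libraries, and 254 higher and 234 lower of 6989 in Tcf7KO than in Tcf7WT members. The balance of higher and lower genes depended on the scaling. Of the genes called in both libraries, 36.35% were higher in members, and 45.37% with TMM and 45.42% with DESeq2 factors. Of the genes called between genotypes, 48.66% were higher in Tcf7KO, and 56.04% and 54.3% with these factors. Of 7403 log2 ratios under alternatives, 89 changed sign, 13 of which are past 1.5-fold as reported, and besides these 13, 759 left their counting interval. Of 1325 list medians, 77 changed sign, 2 of which are past 1.5-fold as reported, while the others had a median size of 0.023, and besides these 2, 17 moved by 1.5-fold or more. The cause was not tested unless given. Without cells with 3 or more cell cycle UMIs, which left 233 Tcf7KO and 138 Tcf7WT members, members over Gzma-0 reached 0.30 for Lgals1 and -1.10 for Runx2 in Tcf7KO and 0.18 for Pdcd1 in Tcf7WT, and Tcf7KO over Tcf7WT members reached 0.21 for Ccl3, -0.33 for Gzmc and 0.17 for the cell cycle median. With 5 to 14 Gzma UMIs (163 and 44 members), Tcf7KO over Tcf7WT reached -0.96 for Cd28, -0.48 for Cd8b1, 0.46 for Klrk1, -0.51 for Pdlim1 and 0.056 for the cell cycle median. Ccr7 reached 0.36 in Tcf7WT members over Gzma-0 without Cd8b1 cells and -0.86 for Tcf7KO over Tcf7WT members low in ribosomal RNA. With every Gzma-0 cell that had a UMI of a naive marker taken out, Ccr7 and Lef1 reached 4.54 and 5.65 in Tcf7KO by construction. Removal of Scrublet doublets was not run. No paired analysis was possible because each group is 1 library and no result comes from a test. Depth limits genes with few UMIs in the 503 Tcf7WT members.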

Other observations

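Receptor V segments were captured in few members, since a 3′ library reads them poorly. Of 185 Tcf7KO members with a Trav UMI, Trav3-3 was the leading segment in 2.70% and Trav4-4-dv10 in 0.541%. Of 63 Tcf7WT members with a Trav UMI these were 19.05% (10.2 to 30.9%, exact binomial) and 17.5% (9.05 to 29.1%). In Gzma-0 cells they were 2.98% and 2.24% of 671 cells in Tcf7KO, and 2.78% and 2.01% of 1043 cells in Tcf7WT. Of members with a Trbv UMI, Trbv13-2 led in 4.26% and Trbv13-3 in 7.45% of 94 Tcf7KO members, against 20.7% (7.99 to 39.7%) and 17.2% (5.85 to 35.8%) of 29 Tcf7WT members. These segments were singled out after their values were seen, and Trav genes have near-copies among which reads may be split.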
